A study of Mus musculus with 29 samples.

Results

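Binding of Atoh1, Pou4f3 and Gfi1 was examined at 9 genes of cell cycle exit, namely the kinase inhibitors Cdkn1a, Cdkn1b and Cdkn1c, the D-type cyclins Ccnd1, Ccnd2 and Ccnd3, the pocket protein gene Rb1, and the growth-promoting genes Myc and Mycn. The genes were chosen by name, with earlier results of these data known. A peak summit was counted at a gene when it lay in the gene body or within 50 kb of it on mouse build mm9, and only summits that the authors had kept in their deposited summit lists were used. Of 175162 kept summits in 9 peak lists, 170 met this rule. Each summit was given a window of 300 bp around it, and windows with at least 1 bp in common were merged into a single site, which gave 75 sites at the 9 genes out of 78408 in all. The 9 windows covered 1.2 Mb, or 0.0452% of the genome, and held 0.0971% of the kept summits.

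Binding was measured by ChIP-seq, the sequencing of DNA recovered with a protein by immunoprecipitation, in 6 mouse embryonic stem cell lines made from the A2loxCre parent, each with a doxycycline-inducible cassette that also carries a Venus reporter. The lines were differentiated as embryoid bodies (cell aggregates in suspension), doxycycline was given at 2 µg/ml from day 4 for 48 h, and the bodies were harvested on day 6. Atoh1 with a FLAG tag was precipitated in iAtoh1 (Atoh1 alone), iG+A (Gfi1 and Atoh1), iP+A (Pou4f3 and Atoh1) and iGPA (Gfi1, Pou4f3 and Atoh1). Pou4f3 was precipitated through a MYC tag, which is a short peptide and not the Myc gene described below, in iPou4f3 (Pou4f3 alone), iG+P (Gfi1 and Pou4f3), iP+A and iGPA, and Gfi1 was precipitated in iGPA with an antibody to the protein. There were 17 ChIP and 12 input libraries, and the replicates of a line were different clones. Embryoid bodies are a mixed tissue and not inner ear, so the sites show where the induced proteins bound in that setting. The replicates had been merged before peaks were called and the Gfi1 list rests on 1 library, so the spread among replicates cannot be seen in these files and lines were not compared by a test.

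A cell leaves the cell cycle when the D-type cyclins no longer keep the kinases Cdk4 and Cdk6 active. These kinases phosphorylate the Rb1 protein, and the unphosphorylated protein holds back the E2F factors that switch on DNA replication genes. The Cdkn1 proteins bind and inhibit complexes of cyclins and cyclin-dependent kinases, while Myc and Mycn proteins bind E-box DNA with Max and promote growth and division. Hair cells of the inner ear become postmitotic as they form. Cdkn1b is the inhibitor best known for the exit of their progenitors, and hair cells that lose Rb1 can re-enter the cycle. Atoh1 is the basic helix-loop-helix factor that starts the hair cell fate, whereas Pou4f3, a POU homeodomain factor, and Gfi1, a zinc finger factor, act later in the differentiation and survival of these cells.

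The strongest sites of each factor, and the site of each gene that was present in most lists, are shown by the reference sequence of the 151 bp around the summit, given on the plus strand of mm9, which Ensembl names NCBIM37. In the Atoh1 sites the capitals mark E-boxes (CAGCTG or CATATG, both palindromes, and CAGATG with its reverse complement CATCTG), the core that basic helix-loop-helix factors bind. The Ccnd3 and Cdkn1c sites are printed because they hold the 3 highest Atoh1 folds at the 9 genes, and those of Cdkn1a, Mycn, Ccnd1 and Cdkn1b because they are the sites of their gene in most lists.
Cdkn1a upstream Atoh1 site, chr17:29193757-29193907: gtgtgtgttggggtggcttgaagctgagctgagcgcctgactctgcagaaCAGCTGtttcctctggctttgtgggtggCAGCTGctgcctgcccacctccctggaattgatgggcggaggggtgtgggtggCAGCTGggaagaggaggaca
Cdkn1c downstream Atoh1 site, chr7:150623905-150624055: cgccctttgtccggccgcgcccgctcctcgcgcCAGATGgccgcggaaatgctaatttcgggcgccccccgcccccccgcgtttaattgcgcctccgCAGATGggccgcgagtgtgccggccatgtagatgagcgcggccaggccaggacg
Ccnd3 first intronic Atoh1 site, chr17:47648315-47648465: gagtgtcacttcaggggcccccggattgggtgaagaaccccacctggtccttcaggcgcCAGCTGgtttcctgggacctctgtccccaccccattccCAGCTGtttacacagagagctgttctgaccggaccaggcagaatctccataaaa
Ccnd3 second intronic Atoh1 site, chr17:47658730-47658880: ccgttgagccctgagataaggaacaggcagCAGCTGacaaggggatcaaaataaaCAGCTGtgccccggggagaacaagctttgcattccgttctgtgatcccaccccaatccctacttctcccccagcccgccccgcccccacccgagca
Mycn intronic Atoh1 site, chr12:12945243-12945393: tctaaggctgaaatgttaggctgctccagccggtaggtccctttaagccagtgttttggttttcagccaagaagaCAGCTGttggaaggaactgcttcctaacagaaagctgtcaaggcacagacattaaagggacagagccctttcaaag
Ccnd1 downstream Atoh1 site, chr7:152101225-152101375: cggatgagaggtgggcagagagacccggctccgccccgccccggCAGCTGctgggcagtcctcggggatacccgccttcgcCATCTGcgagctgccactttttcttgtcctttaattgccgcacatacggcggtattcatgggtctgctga
Cdkn1b distal site, chr6:134823259-134823409: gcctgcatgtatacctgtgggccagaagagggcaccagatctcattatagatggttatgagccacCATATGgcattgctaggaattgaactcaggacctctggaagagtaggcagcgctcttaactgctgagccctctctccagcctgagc

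The Pou4f3 sites below were those with the highest Pou4f3 enrichment, together with the Myc site present in most lists. Capitals mark the Pou4f pattern ATAATTAAT with at most 1 mismatch, on either strand.
Ccnd3 intronic Pou4f3 site, chr17:47644889-47645039: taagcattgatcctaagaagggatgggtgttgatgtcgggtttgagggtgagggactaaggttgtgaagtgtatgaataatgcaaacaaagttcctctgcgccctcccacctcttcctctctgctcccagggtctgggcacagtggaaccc
Mycn intronic Pou4f3 site, chr12:12947630-12947780: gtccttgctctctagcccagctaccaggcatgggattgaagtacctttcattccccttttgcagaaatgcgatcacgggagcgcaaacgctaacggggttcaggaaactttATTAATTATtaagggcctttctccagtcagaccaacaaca
Ccnd1 downstream Pou4f3 site, chr7:152082122-152082272: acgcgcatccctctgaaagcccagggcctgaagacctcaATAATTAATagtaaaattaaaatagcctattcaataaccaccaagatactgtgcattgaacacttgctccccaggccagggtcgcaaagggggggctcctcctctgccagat
Myc downstream Pou4f3 site, chr15:61858633-61858783: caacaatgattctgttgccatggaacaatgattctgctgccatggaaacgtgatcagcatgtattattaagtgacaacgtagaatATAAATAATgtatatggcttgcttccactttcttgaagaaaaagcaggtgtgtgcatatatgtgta

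The last group holds the sites with the highest Gfi1 enrichment that are not printed above, at Ccnd2 and Mycn, and the Rb1 site present in most lists. No letters are in capitals, because none of the E-box forms listed above, the Pou4f pattern or the Gfi1 patterns AATCACAGC and AATCACTGC occurred in these windows. Other E-box forms were not searched, such as CACCTG, which is in the Rb1 window, and CAGGTG, which is in the Ccnd2 window. The Gfi1 patterns were searched without mismatches, and 6.99% of all Gfi1 sites held one in the 250 bp around the summit. The Ccnd2 window contains CCTGTGATT, which differs by 1 letter from the reverse complement of AATCACAGC.
Ccnd2 downstream Gfi1 site, chr6:127059699-127059849: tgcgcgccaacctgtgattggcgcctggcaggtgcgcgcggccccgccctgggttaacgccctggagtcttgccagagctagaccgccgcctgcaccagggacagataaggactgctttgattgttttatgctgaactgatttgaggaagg
Mycn promoter site, chr12:12948742-12948892: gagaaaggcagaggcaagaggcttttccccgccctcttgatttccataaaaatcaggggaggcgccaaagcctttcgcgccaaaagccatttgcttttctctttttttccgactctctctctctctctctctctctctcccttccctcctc
Rb1 first intron site, chr14:73725023-73725173: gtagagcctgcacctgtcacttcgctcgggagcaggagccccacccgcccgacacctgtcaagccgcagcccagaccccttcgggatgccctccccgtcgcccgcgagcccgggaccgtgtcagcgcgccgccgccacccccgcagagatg

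Summits were found at most of the 9 genes in every Atoh1 and Pou4f3 list. For Atoh1, 7 of the 9 genes had a summit in iAtoh1, where 53.1% of all protein-coding genes had one by the same rule. In iG+A the count was 9 (65.7% of all protein-coding genes), in iP+A it was 8 (62.7%), and in iGPA it was 9 (72.2%). For Pou4f3, iPou4f3 had 8 such genes (72.8%), iG+P had 8 (76.6%), iP+A had 7 (58.8%) and iGPA had 6 (63.2%). Gfi1 summits were found at 4 genes, Cdkn1b, Ccnd2, Ccnd3 and Mycn, where 23.2% of all protein-coding genes had one. When only peaks with a −log10 p of 10 or more were used, the count fell to 4 in iAtoh1 (24.5% of all protein-coding genes), 4 in iG+P (42%), 3 in the iP+A Pou4f3 list (26.7%) and 2 in the Gfi1 list (11.7%). With 10 kb in place of 50 kb it fell to 5 in the iP+A Atoh1 list (38.7%) and 2 in the Gfi1 list (11.5%). With 9 genes these shares are coarse, since 1 gene more or less is a change of 11 percentage points, and the Pou4f3 shares lay nearer to the background than the Atoh1 shares did.

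**Figure D1:**
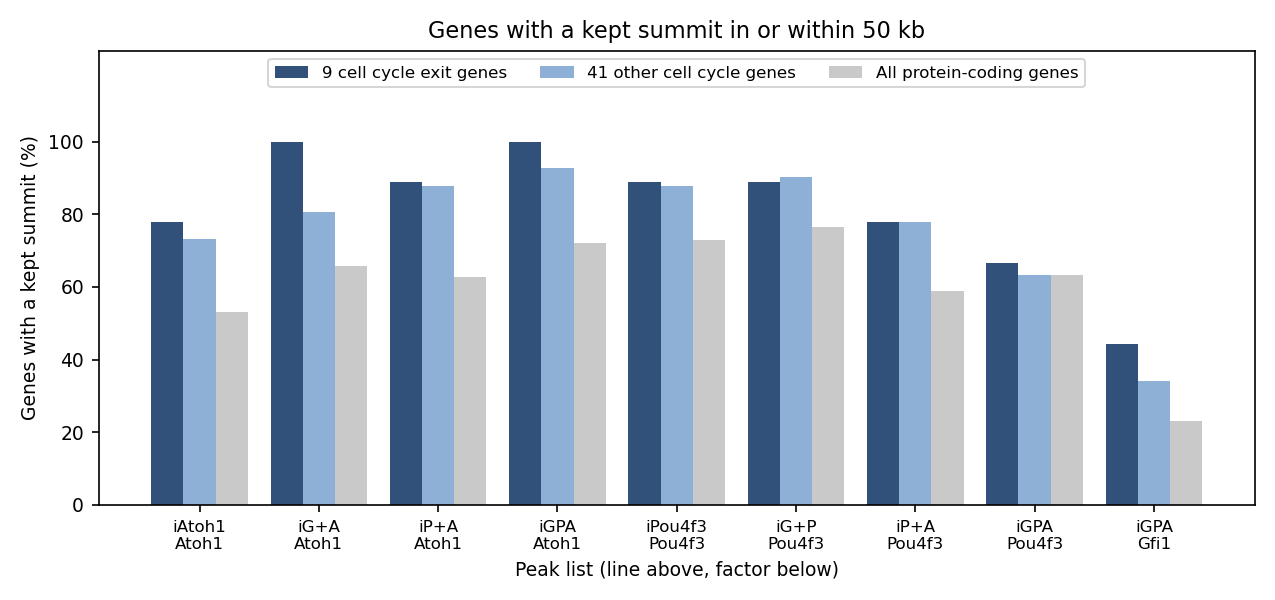
Bars give the percentage of genes with a kept summit in the gene body or within 50 kb (vertical axis) in each of the 9 peak lists (horizontal axis), for the 9 cell cycle exit genes, 41 other cell cycle genes and all protein-coding genes. The 9 genes ranged from 44.4% in the Gfi1 list to 100% in the iG+A and iGPA Atoh1 lists.

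By number, iAtoh1 had 19 Atoh1 summits at the 9 genes, iG+A had 28, iP+A had 21 and iGPA had 29. Per megabase of window this was 15.8, 23.3, 17.5 and 24.2 summits, beside 7.88, 10.7, 9.57 and 13.7 over the windows of all protein-coding genes. For Pou4f3, iPou4f3 had 25 summits, iG+P had 21, iP+A had 10 and iGPA had 13, or 20.8, 17.5, 8.33 and 10.8 per megabase beside 11.2, 15.8, 8.21 and 8.78. The lists differ in length, and the order of the lines depended on it. With each list reduced to its 15568 summits of lowest p, the Atoh1 counts were 19 in iAtoh1, iP+A and iGPA alike and 22 in iG+A, so that iGPA no longer stood above iAtoh1. The Pou4f3 counts became 16 for iPou4f3, 11 for iGPA, 9 for iG+P and 7 for iP+A. The iG+P list was the longest of all, with 32632 kept summits, and held fewer at these genes than the iPou4f3 list with 22433. The share was 0.111% of the iPou4f3 list (exact 95% Clopper-Pearson interval 0.0721 to 0.164) and 0.0644% of the iG+P list (0.0398 to 0.0984). These intervals overlap and, like all others given here, cover counting error only.

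Ccnd3 had 41 summits over the 9 lists, Mycn 23, Cdkn1a 20, Rb1 18, Cdkn1b 17, Ccnd1 16, Cdkn1c 15, Myc 14 and Ccnd2 6. Gene bodies differ in length, from 2.70 kb for Cdkn1c to 142 kb for Rb1, so the counts are also given per 100 kb of window. On that scale Mycn had 21.7 summits, Ccnd3 21.1 and Cdkn1a 18.2, Rb1 had 7.43 and Ccnd2 had 4.79. Of all protein-coding genes, 11.6% had a summit density at least as high as that of Mycn, 12.6% as that of Ccnd3 and 68.1% as that of Ccnd2.

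**Figure D2:**
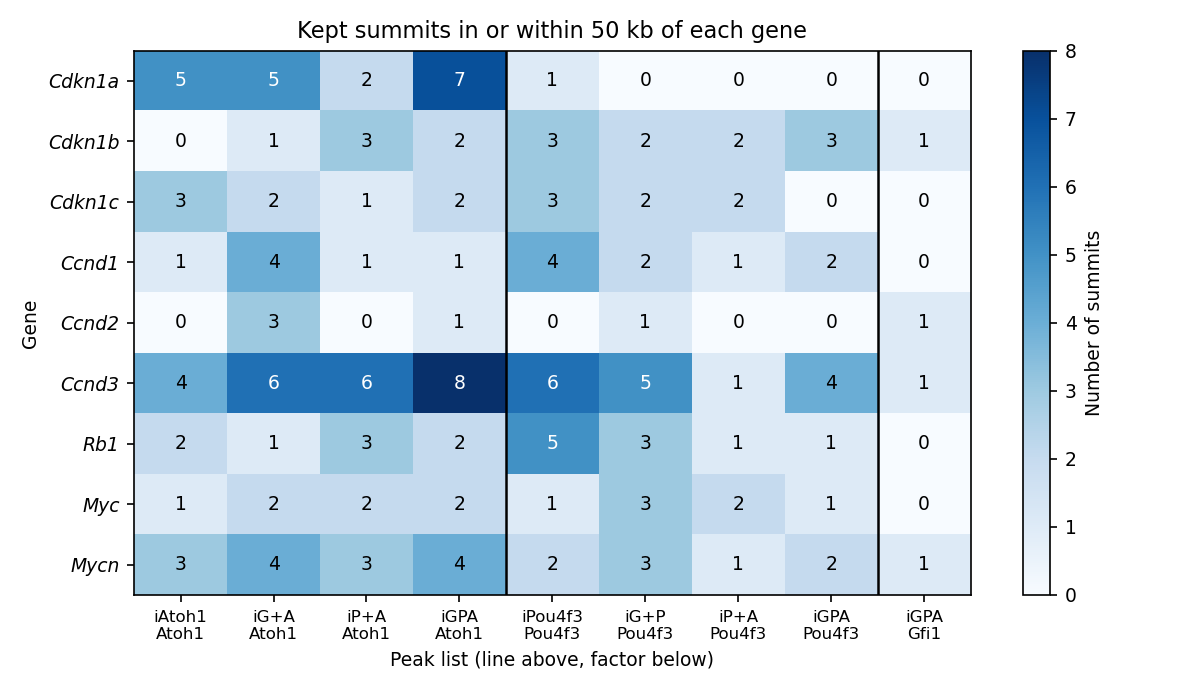
Each cell gives the number of kept summits in or within 50 kb of a gene (rows) in a peak list (columns, with the line above the factor), and darker blue marks a higher number. Cdkn1a had 19 Atoh1 summits and 1 Pou4f3 summit, and the Gfi1 list had 1 summit at each of 4 genes.

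Cdkn1a, the inhibitor that p53 induces, had the most one-sided balance of factors. Its Atoh1 summits were most numerous in iGPA, at 7, with 5 each in iAtoh1 and iG+A and 2 in iP+A. Pou4f3 had 1 summit there in iPou4f3 and none in the other 3 Pou4f3 lists, and Gfi1 had none. Of all protein-coding genes, 8.25% had at least as many Atoh1 summits, whereas 85% had at least as many Pou4f3 summits. The 8 Atoh1 sites lay mostly away from the gene, and 2 of the 9 sites in the window had a Cdkn1a start as the nearest annotated start. Both strongest sites lay upstream, at 34.1 kb and 41.7 kb from the 5′ end of the gene, and the nearest start to each was that of Srsf3, a splicing factor gene.

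At the 34.1 kb site, chr17:29193682-29193997, which holds 3 CAGCTG boxes in the sequence printed above, fold enrichment over the local background was 6.84 in iAtoh1 (95% counting interval 5.18 to 8.87), 9.21 in iG+A (7.18 to 11.6), 4.84 in iP+A (3.55 to 6.46) and 10.4 in iGPA (8.33 to 12.9). The interval of iP+A lay below those of iG+A and iGPA and overlapped that of iAtoh1. At the 41.7 kb site, chr17:29186016-29186368, the folds were 5.99, 6.27, 3.87 and 7.75 in the same order, and the iP+A interval (2.73 to 5.34) lay below that of iGPA (5.97 to 9.90) only. Closer to the gene, a site 9.74 kb upstream had folds of 2.93 in iAtoh1, 2.80 in iG+A and 4.06 in iGPA and was absent from iP+A. A site in an intron, 118 bp upstream of an internal start, was present in iAtoh1 only, at 3.30. A deposited fold compares fragments at the summit with the local background of that list, so folds of different lists rest on different backgrounds. In a population of cells, fewer cells with a bound factor and weaker binding in each cell cannot be told apart.

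Cdkn1b, like Rb1 and Ccnd1, had more Pou4f3 than Atoh1 summits, with 6 for Atoh1 and 10 for Pou4f3. Atoh1 summits were absent from iAtoh1 and numbered 3 in iP+A, 2 in iGPA and 1 in iG+A, while Pou4f3 had 3 each in iPou4f3 and iGPA and 2 each in iG+P and iP+A. No site lay inside the short gene body. The site in most lists, chr6:134823132-134823489, lay 47.1 kb upstream in an intron of Gpr19, an orphan receptor gene, and had Atoh1 folds of 5.17 in iGPA, 3.44 in iP+A and 3.20 in iG+A and a Pou4f3 fold of 3.09 in iPou4f3. A second site with both factors, 7.53 kb upstream of the gene, had Atoh1 folds of 2.80 in iP+A and 3.32 in iGPA and a Pou4f3 fold of 3.20 in iGPA. This was the only site at the 9 genes where Atoh1 and Pou4f3 both had a kept summit in the same line.

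The promoter of Cdkn1b, within 1 kb of the start, had 1 weak Atoh1 site at 521 bp upstream, in iP+A only, with a fold of 2.47 (1.59 to 3.69). No Pou4f3 site lay within 1 kb of the start. Besides both upstream sites above, Pou4f3 had 4 sites downstream of the 5′ end. One at 6.01 kb had folds of 4.04 in iPou4f3, 2.83 in iP+A and 3.20 in iGPA, and its neighbour at 6.71 kb had 3.21 in iPou4f3 and 3.06 in iG+P. A Gfi1 site with a fold of 4.18 (2.57 to 6.48) lay 21.5 kb upstream and carried no kept summit of another factor.

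Cdkn1c, the imprinted inhibitor, had 8 Atoh1 and 7 Pou4f3 summits, which fell at separate sites. The main Atoh1 site, chr7:150623818-150624135, lay 23 kb downstream of the 5′ end in intergenic DNA. Its folds were 5.99 in iAtoh1 (4.45 to 7.90), 7.08 in iG+A (5.32 to 9.24), 7.42 in iP+A (5.79 to 9.38) and 13.5 in iGPA (11.1 to 16.3), so that the iGPA interval lay above those of the other 3 lines. A second site 32.4 kb downstream had folds of 4.89, 5.61 and 6.89 in iAtoh1, iG+A and iGPA and no kept summit in iP+A. Pou4f3 was found in a broad site over the 3′ part of the gene, with folds of 2.85 in iPou4f3, 2.41 in iG+P and 2.49 in iP+A, where neighbouring windows were chained into 1 site by the joining rule. The iGPA list had no kept Pou4f3 summit at Cdkn1c, although 1 was called over this site and not kept.

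**Figure D3:**
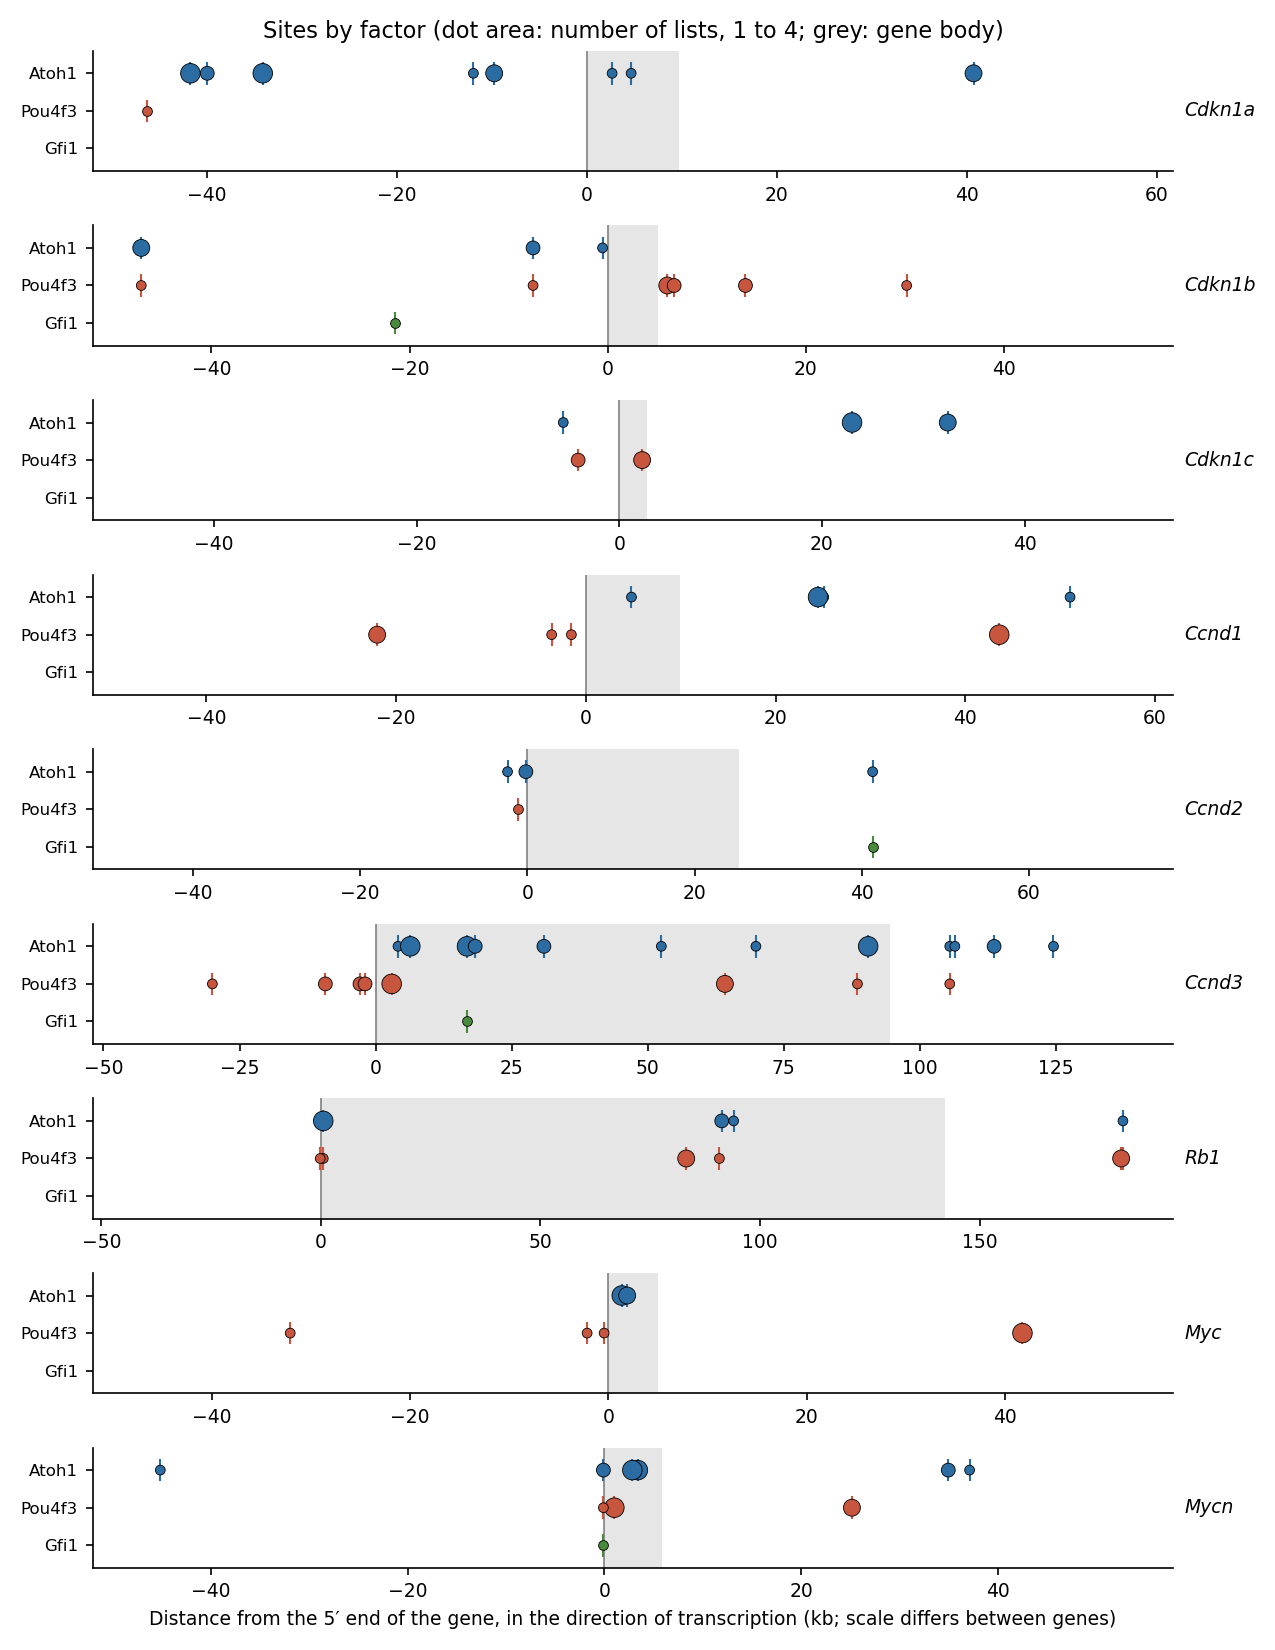
Each row shows 1 gene with the sites of Atoh1, Pou4f3 and Gfi1 by distance in kb from the 5′ end of the gene in the direction of transcription, with the gene body in grey and dot area growing with the number of lists of that factor (1 to 4). Atoh1 and Pou4f3 dots share a position at 6 sites, 2 of them at Cdkn1b and 2 at Rb1.

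The D-type cyclin genes spanned the whole range of the set. Ccnd3 had 19 sites, of which 12 had Atoh1, 8 had Pou4f3 and 1 had Gfi1, and 11 lay inside its 94.6 kb body. Its Atoh1 summits numbered 8 in iGPA, 6 each in iG+A and iP+A, and 4 in iAtoh1. Of its Pou4f3 summits iPou4f3 had 6, iG+P 5, iGPA 4 and iP+A 1. Of all protein-coding genes, 4.55% had at least 41 summits, on its longer window.

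The highest Atoh1 fold at the 9 genes was in an intron of Ccnd3, at chr17:47658623-47658961, 16.8 kb from the 5′ end. The folds were 8.76 in iAtoh1 (6.97 to 10.9), 14.2 in iG+A (11.6 to 17.1), 9.14 in iP+A (7.31 to 11.3) and 12.2 in iGPA (9.91 to 14.8). The iG+A interval lay above those of iAtoh1 and iP+A, and the iGPA interval overlapped all 3. Gfi1 was present at the same place in iGPA, with a fold of 4.18 (2.57 to 6.48) and a summit within the same site. A second intronic site at 6.39 kb, chr17:47648220-47648597, had another order of lines. Its folds of 5.01 in iAtoh1, 6.27 in iG+A and 5.49 in iP+A had overlapping intervals, and the fold of 12.4 in iGPA (10.1 to 15.1) lay above them all.

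The highest Pou4f3 fold was also in Ccnd3, at chr17:47644808-47645121, 2.96 kb from the 5′ end. It was 9.87 in iPou4f3 (7.87 to 12.2), 10.8 in iG+P (8.82 to 13.2), 4.42 in iP+A (3.16 to 6.02) and 13.4 in iGPA (10.8 to 16.4). The iP+A interval lay below the other 3. Over all sites shared by the iP+A and iGPA Pou4f3 lists the fold was higher in iGPA at 89.8%. A weaker Atoh1 site at 90.5 kb was present in all 4 Atoh1 lists, with folds of 2.81 to 3.34. In an untranslated exon of Ccnd3, 149 bp downstream of an internal start, a Pou4f3 site with a fold of 3.09 was kept in iPou4f3 only.

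Ccnd1, best known as a target of mitogen signals, had 7 Atoh1 and 9 Pou4f3 summits and none within 1 kb of its starts. The site in most lists for each factor lay beyond the 3′ end, next to another gene. Atoh1 was found at chr7:152101131-152101464 in an exon of Oraov1, with a fold of 5.41 in iGPA, 3.55 in iP+A, 3.30 in iAtoh1 and 3.20 in iG+A, all with overlapping intervals. Pou4f3 was found at chr7:152082002-152082357, 240 bp upstream of Fgf15, a fibroblast growth factor gene, with a fold of 5.38 in iG+P, 4.90 in iGPA, 4.04 in iPou4f3 and 3.74 in iP+A. Closer to Ccnd1, Pou4f3 sites at 1.53 kb and 3.61 kb upstream were kept in iPou4f3 only, at 3.92 and 3.09, and an intronic Atoh1 site in iG+A only, at 3.34.

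Ccnd2 had the fewest sites, 4, with 4 Atoh1 summits (3 in iG+A and 1 in iGPA), 1 Pou4f3 summit and 1 Gfi1 summit. No Atoh1 summit was kept there in iAtoh1 or iP+A, where 53.1% and 62.7% of all protein-coding genes had one. Counted by site, 40% of the Atoh1 sites at the 9 genes were in iG+A or iGPA and in neither of the other lists, beside 42% of all Atoh1 sites. The promoter site 177 bp upstream of the start had folds of 3.34 in iG+A (2.19 to 4.90) and 4.06 in iGPA (2.82 to 5.68). The highest Gfi1 fold at the 9 genes, 8.80 (6.32 to 11.9), lay 41.3 kb downstream at chr6:127059594-127059923, 206 bp upstream of a start of 9630033F20Rik. Atoh1 was present at the same site in iG+A, at 3.47, and no Atoh1 peak was called there in iGPA, the line of the Gfi1 list.

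Rb1, the substrate of the D-type cyclin kinases, had 8 Atoh1 and 10 Pou4f3 summits over its 142 kb body and flanks. Its site in most lists, 5 of 9, was in the first intron, chr14:73724928-73725466, 350 bp downstream of the nearest start. Atoh1 folds there were 2.57 in iAtoh1 (1.61 to 3.90), 3.87 in iG+A (2.62 to 5.54), 4.20 in iP+A (3.00 to 5.72) and 5.29 in iGPA (3.85 to 7.11), so that the lowest and the highest had overlapping intervals. Pou4f3 was kept at this site in iPou4f3, at 2.28 (1.44 to 3.46). A separate Pou4f3 site 165 bp upstream of the start was kept in iPou4f3 only, at 3.73 (2.59 to 5.22). Of the Pou4f3 summits at Rb1, 5 were in iPou4f3, 3 in iG+P and 1 each in iP+A and iGPA. The farthest sites of the window lay at the start of Rcbtb2.

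Mycn, which drives the growth of neural and sensory progenitors, had 14 Atoh1, 8 Pou4f3 and 1 Gfi1 summits and the highest summit density of the 9 genes. Different factors occupied neighbouring stretches of the gene. Atoh1 was found in an intron at chr12:12945165-12945488, with a CAGCTG box 2 bp from the summit. Folds there were 5.74 in iAtoh1 (4.24 to 7.62), 6.81 in iG+A (5.09 to 8.93), 9.79 in iP+A (7.89 to 12.0) and 8.12 in iGPA (6.30 to 10.3), and the iP+A interval lay above that of iAtoh1. A second Atoh1 site at 2.84 kb from the 5′ end had folds of 2.93, 3.34, 4.30 and 6.15 in the same order, with the iGPA interval (4.58 to 8.10) above that of iAtoh1 (1.90 to 4.34).

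Pou4f3 lay between these sites and the promoter, at chr12:12947552-12947870 in an intron. Its folds were 6.89 in iPou4f3 (5.25 to 8.90), 6.13 in iG+P (4.64 to 7.95), 3.72 in iP+A (2.62 to 5.13) and 7.43 in iGPA (5.55 to 9.75). As at Ccnd3, the iP+A interval lay below those of iPou4f3 and iGPA. At the Mycn promoter, chr12:12948407-12948966, a Gfi1 summit 97 bp upstream of the start had a fold of 5.28 (3.43 to 7.81). The same joined site held Atoh1 at 2.94 in iG+A and 2.83 in iGPA and Pou4f3 at 2.38 in iG+P. The window of the Gfi1 summit is joined there to summits of the other factors that lie downstream of the start.

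Myc had 7 Atoh1 and 7 Pou4f3 summits, in 2 Atoh1 sites and 4 Pou4f3 sites. Both Atoh1 sites lay inside the gene, near internal starts. The intronic one, 284 bp upstream of an internal start, was present in all 4 lists, with a fold of 4.31 in iGPA, 3.30 in iAtoh1, 3.07 in iG+A and 3.01 in iP+A. The other, 128 bp upstream of an internal start and in an untranslated exon, had 4.09 in iP+A, 4.01 in iG+A and 3.57 in iGPA and no kept summit in iAtoh1. Pou4f3 was found 421 bp upstream of the 5′ end in iP+A only, at 2.38 (1.5 to 3.61). Its site in all 4 lists lay 41.8 kb downstream, chr15:61858542-61858898, toward Pvt1, a non-coding RNA gene, and had a fold of 5.25 in iG+P, 4.51 in iGPA, 3.92 in iPou4f3 and 3.06 in iP+A.

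**Figure D4:**
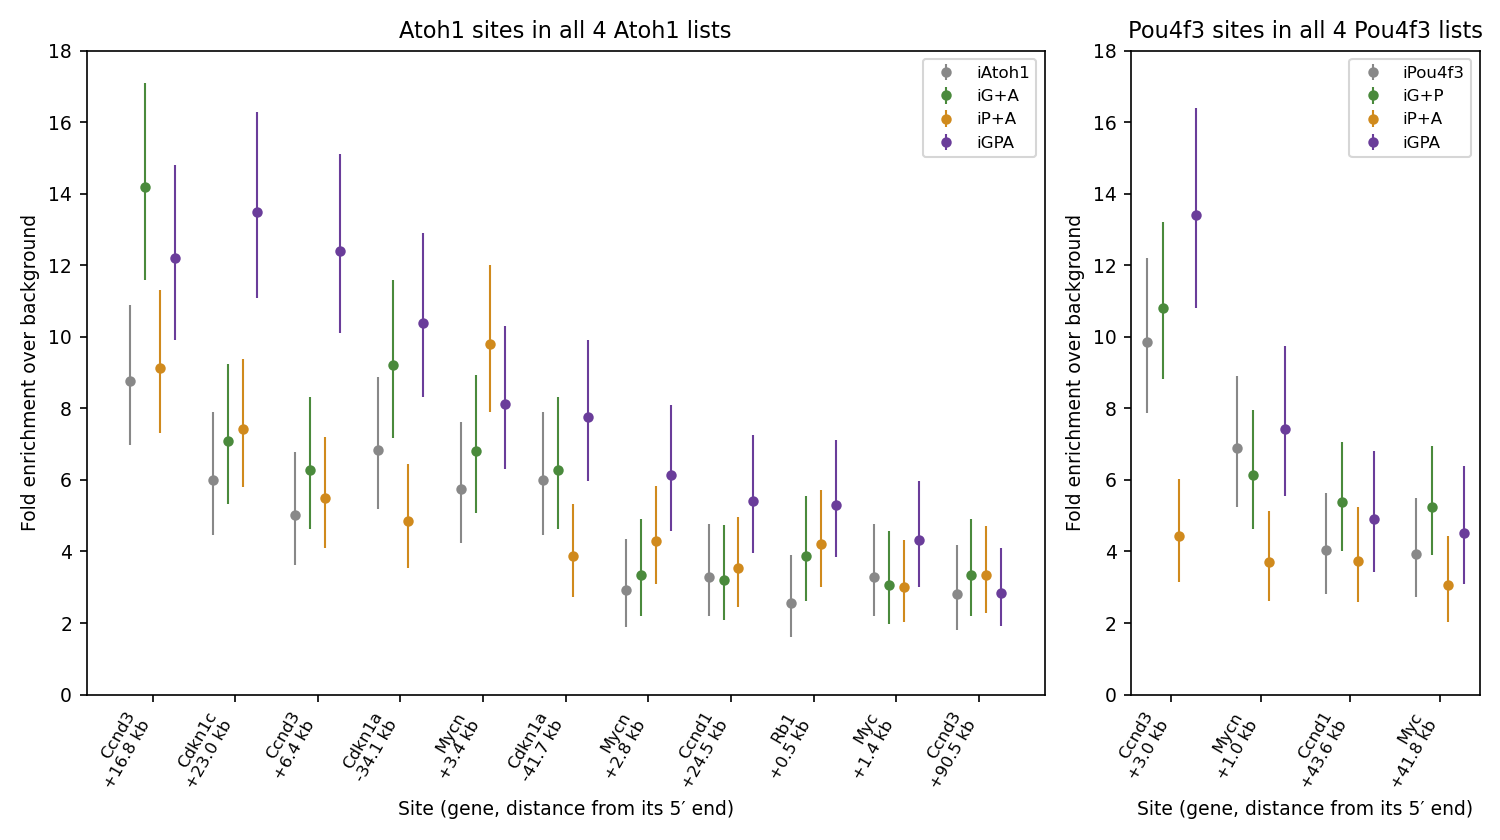
Points give the deposited fold enrichment (vertical axis, linear from 0) with the 95% counting interval at the 11 Atoh1 sites and 4 Pou4f3 sites present in all 4 lists of their factor, labelled by gene and distance from its 5′ end, with the lines in different colours. The iGPA points lie highest at 8 of the 11 Atoh1 sites, and the iP+A points lie lowest at all 4 Pou4f3 sites.

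Across the lines, the share of Atoh1 sites found in all 4 Atoh1 lists was higher at these genes than over all sites. Of 45 Atoh1 sites, 11 were in all 4 Atoh1 lists, a share of 24.4% (12.9 to 39.5), beside 10.7% of all Atoh1 sites. Cdkn1a had 2 of them, Cdkn1c 1, Ccnd1 1, Ccnd3 3, Rb1 1, Myc 1 and Mycn 2, and Cdkn1b and Ccnd2 had none. Another 20 were in a single list, 44.4% beside 54.7% of all Atoh1 sites. With every called peak the share in all 4 lists was 22.4% (11.8 to 36.6), beside 16.8% of all sites. With 1000 bp windows it was 24.4% (12.4 to 40.3), beside 14.2%. In both settings the interval included the share of all sites. Of the 29 iGPA sites, 22 were also in iG+A, or 75.9% (56.5 to 89.7) beside 42.3% over all iGPA sites, and 14 were also in iP+A, or 48.3% (29.4 to 67.5) beside 42.7%. Of the 19 iAtoh1 sites, 14 were also in iGPA, 73.7% (48.8 to 90.9) beside 54.3%.

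At the 14 sites shared by iAtoh1 and iGPA the fold was higher in iGPA at all 14, with intervals apart at 3 (Cdkn1c at 23 kb, Ccnd3 at 6.39 kb and Mycn at 2.84 kb). Over all shared sites of these lists the fold was higher in iGPA at 73.2%. The median at the 14 sites was 4.28 in iAtoh1 and 6.52 in iGPA. Between iP+A and iGPA the fold was higher in iGPA at 11 of 14 sites, with intervals apart at 4, beside 76.3% of all shared sites. The direction at these genes was thus also that of most shared sites of the genome.

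For Pou4f3 the share of sites in all 4 lists was near that of all sites. Of 35 Pou4f3 sites, 4 were in all 4 Pou4f3 lists, 11.4% (3.20 to 26.7) beside 14.8% of all Pou4f3 sites. Another 18 were in a single list, 51.4% (34 to 68.6) beside 53.1% of all Pou4f3 sites. The 4 lay at Ccnd3, Mycn, Ccnd1 and Myc, and none at an inhibitor gene or at Rb1. Of the 24 iPou4f3 sites, 7 were also in iP+A, 29.2% (12.6 to 51.1) beside 44.6% of all iPou4f3 sites. At those 7 the fold was lower in iP+A at every one, with intervals apart at 2, beside 77.7% of all shared sites. At 8 of the 9 sites shared by iPou4f3 and iGPA the fold was higher in iGPA, with no intervals apart, beside 73.4%. The medians at those 9 sites went the other way, at 3.92 in iPou4f3 and 3.64 in iGPA. Over all shared sites of these lists they were 4.04 and 4.95.

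**Figure D5:**
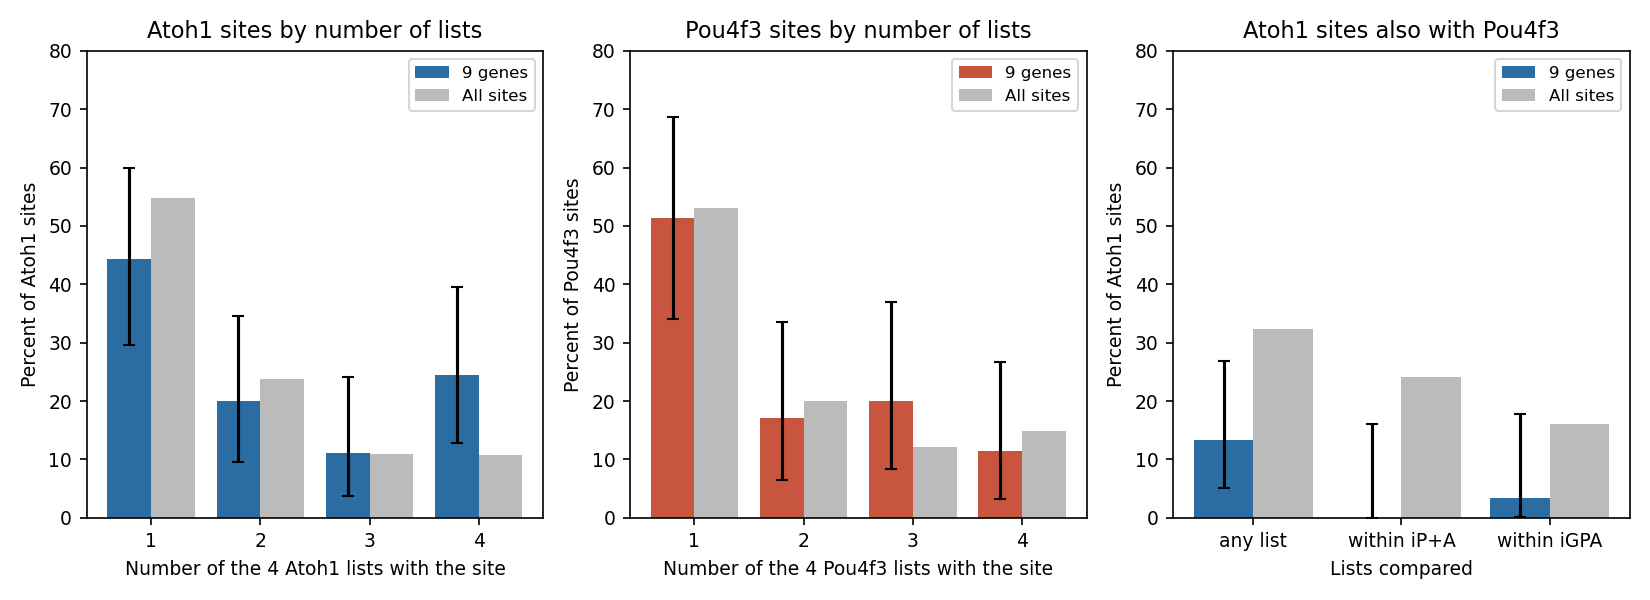
The first and second panels give the percentage of Atoh1 and Pou4f3 sites (vertical axis) found in 1, 2, 3 or 4 lists of the factor at the 9 genes (colour, with 95% Clopper-Pearson intervals) and over all sites (grey), and the last panel gives the percentage of Atoh1 sites that also had Pou4f3. At the 9 genes 13.3% of Atoh1 sites had Pou4f3 in any list, beside 32.3% of all Atoh1 sites.

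Atoh1 and Pou4f3 mostly used separate sites at these genes, although both were found near 9 of the 9. Of the 45 Atoh1 sites, 6 had Pou4f3 in any list, 13.3% (5.05 to 26.8), beside 32.3% of all Atoh1 sites and 32.6% of those near a protein-coding gene. The 6 sites were 2 at Cdkn1b, 2 at Rb1, 1 at Mycn and 1 at Ccnd3, and the highest fold among them was 5.29, for Atoh1 of iGPA in the Rb1 intron. Within iGPA 1 of 29 Atoh1 sites also had Pou4f3, 3.45% (0.0873 to 17.8), beside 16% of all iGPA Atoh1 sites. Within iP+A it was 0 of 21 (0 to 16.1), beside 24.2%. When only peaks with a −log10 p of 10 or more were used, the share was 0 of 19 sites at the 9 genes and 22.5% of all. With every called peak, kept or not, it was 11 of 49 sites, 22.4% (11.8 to 36.6), beside 41.7% of all, so the share at the 9 genes rose by over 1.5 times and its interval still lay below that of all sites. Cdkn1a, with 8 Atoh1 sites and 1 Pou4f3 site, had no site with both.

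Gfi1 sites were few, at 4, and the threshold of that list was higher in fold. At the usual background of 3.55 fragments the fewest fragments in a kept peak were 14, a fold of 3.30, whereas in the other lists that fold was 2.30 to 2.62. Of the 4 sites, 2 also had Atoh1 in iGPA (at Ccnd3 and Mycn), beside 45.2% of all Gfi1 sites, and 3 had Atoh1 in any list. Kept folds could be lower where the local background was higher, as at the Rb1 intron (2.28 in iPou4f3), and peaks with folds up to 3.57 were called and not kept. Weaker binding at the other 5 genes, or of any factor at a site that a list does not name, was not detectable at this depth.

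Most sites lay away from promoters. Of the 75 sites, 25 were inside the body of the gene, 11 were within 1 kb of an annotated start of it, and 44 had one of its starts as the nearest. By annotation 33 summits were intergenic, 33 intronic, 5 in untranslated exons, 4 in non-coding exons and 0 in coding exons, and 0 lay in a short tandem repeat. The 11 promoter sites were at Mycn, Myc, Rb1, Cdkn1a, Cdkn1b, Ccnd2 and Ccnd3, and there was none at Cdkn1c or Ccnd1. Some of the remaining sites lay within 1 kb of a start of another gene, such as those 12 bp from a start of Rcbtb2 and 26 bp from one of Bysl. The shares of these locations over all sites of the series are not given here. The windows thus also held starts of other genes, so a site in a window is near a gene and is not assigned to it.

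E-boxes were common at the Atoh1 sites. In the 250 bp around the summit, on both strands, 33 of 45 sites had an E-box of the forms printed above, 73.3% (58.1 to 85.4), beside 64.9% of all Atoh1 sites and 27.8% of windows 1000 bp to either side of the 45. The form CAGCTG was in 48.9% (39.4% of all Atoh1 sites and 8.89% of the side windows), and CAGATG or CATCTG in 31.1% (37% and 18.9%). The longer Atoh1 E-box associated motif, AtEAM, which contains one of these E-boxes, was in 28.9% (16.4 to 44.3), beside 15% of all Atoh1 sites and 1.11% of the side windows. It was present at both strong Cdkn1a sites, the Cdkn1c site at 23 kb, the Ccnd3 site at 6.39 kb and the intronic Mycn site, and not at the Ccnd3 site with the highest Atoh1 fold. The Pou4f pattern was in 31.4% of the 35 Pou4f3 sites (16.9 to 49.3), beside 38% of all Pou4f3 sites and 12.9% of the side windows. It was found at Mycn, Ccnd1 and Myc sites in all 4 lists, whereas the Ccnd3 site with the highest Pou4f3 fold did not contain it. A match describes letters, and no match says only that these letters are not in the window.

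Other genes of the cell cycle gave a similar picture. Of 41 further genes in 8 groups, 38 had an Atoh1 summit in iGPA, 36 in iP+A, 33 in iG+A and 30 in iAtoh1. The Pou4f3 counts were 37 in iG+P, 36 in iPou4f3, 32 in iP+A and 26 in iGPA, and the Gfi1 count was 14. These shares, 92.7% in the iGPA Atoh1 list and 34.1% in the Gfi1 list for example, were above those of all protein-coding genes in all 9 lists. The shares of the 9 genes were also above them. In the iGPA Pou4f3 list, though, the 41 genes (63.4%) lay at the background (63.2%) and the 9 genes (66.7%) lay near it. With a −log10 p of at least 10, 4 of the 9 genes had a summit in that list, beside 43.6% of all protein-coding genes. In the group of the p53 arm and antiproliferative genes, Btg2, which slows division in neural progenitors, had summits in 9 lists, with 9 to 13 Atoh1 summits in each Atoh1 list. Gadd45b also had summits in 9 lists, with 1 to 3 in each Atoh1 list. Among E2F genes, E2f2 and E2f4 had summits in 9 lists, as did the kinase gene Cdk6, the Skp2 cofactor gene Cks1b, and Mga and Mnt of the Myc network. Of the INK4 inhibitor genes Cdkn2d had summits in 8 lists. Of the other cyclins Ccne1 had summits in 8, and of the other pocket protein genes Rbl2 had summits in 6. Ccnb2, named after its values were seen, was the only one of the 41 with no summit in any list.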

How the data were processed

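According to the methods, reads were adapter-trimmed by the authors (Trimmomatic) and aligned to mm9 with Bowtie 2 in its very-sensitive mode. Duplicates (Picard), poorly mapped reads and reads from the ENCODE blacklist were discarded. The replicates of each ChIP were then merged, and MACS 2 was run against the merged inputs. Tool versions are not given in the sources used here. The deposited fold enrichment of a peak is a ratio of the fragments over the summit to the number that the local background predicts. The same small constant, a pseudocount, is added to both, which lowers the ratio most where the background is low. The deposited −log10 p is that of the peak caller. The summit lists hold the peaks that the authors kept, by a filter that is not stated, and a signal column that was not used. Total reads are unknown here, and the usual background (3.55 to 8.30 fragments) stands in for depth.

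Groups came from the sample titles, and the files that name 3 factors belong to iGPA. The members and the gene lists were chosen with earlier results of these data known. Genes were those of GENCODE on build NCBIM37, from the lowest start to the highest end of their transcripts, plus 50 kb. Fragment numbers were recovered as the whole number that gave both the fold and the p within 0.001, and gave the Poisson intervals of the folds. Such a number existed for 99.3% to 100% of the sampled peaks, depending on the list. Shares have Clopper-Pearson 95% intervals. Patterns were searched in 250 bp around summits on both strands. Named sites were all those within 1 kb of a start of a gene, the site of each gene in most lists with ties to the highest fold, the 3 sites with the highest fold of each factor and any site in 6 or more lists, of which there was none. Other genes were named where their start was nearer to a named site or where they had summits in the most lists of their group. Sites outside this rule are named to give each gene's pattern. On simulated data with 250 shared sites among 950, 250 were found, and all 300 simulated fragment numbers were recovered. Python 3.11.15, pandas 2.3.3, numpy 2.4.6, scipy 1.17.1, pysam 0.24.0 and matplotlib 3.10.9 were used. The alternatives were the unfiltered peak calls, a minimum −log10 p of 10, 10 and 100 kb, equal list length, the nearest start only, 100 and 1000 bp windows, each gene left out, all annotated genes and 150 bp for patterns. A background of sites near protein-coding genes was added after the data were seen.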

Additional observations from a re-analysis of the deposited data

Results flagged for a closer look

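Outside the kept summits, 24 of the 194 called peaks in the windows of the 9 genes were absent from the summit lists, 12.4% beside 24% of all called peaks. The comparisons between lines above rest on kept summits, and these peaks are used there only in remarks on single sites and in the share with every called peak. Their folds ran from 2.21 to 3.57 with a median of 2.70. At 8 of the 75 sites a list without a kept summit had such a peak. One of these was the Ccnd1 site near Fgf15, which had kept Pou4f3 summits in 4 lists and Atoh1 peaks called and not kept in iAtoh1 and iP+A. Another was the Mycn Atoh1 site at 2.84 kb, with a Pou4f3 peak called and not kept in iPou4f3.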

How the results depend on the processing

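No paired analysis was possible because the replicates had been merged before peaks were called, and for the same reason no replicate could be left out. With only peaks of a −log10 p of at least 10, the iAtoh1 list had a summit at 4 genes (24.5% of all protein-coding genes). The iG+P list had one at 4 (42%), the iP+A Pou4f3 list at 3 (26.7%) and the Gfi1 list at 2 (11.7%). The sites numbered 32. The share of Pou4f3 sites in all 4 lists was 27.3%, beside 17.9% of all Pou4f3 sites, and that of Atoh1 sites with Pou4f3 was 0%. Of the iAtoh1 sites 100% were also in iGPA, a share that is not given for all sites in this setting. With 10 kb the iP+A Atoh1 list had a summit at 5 genes (38.7% of all protein-coding genes) and the Gfi1 list at 2 (11.5%). There were 45 sites with 10 kb and 124 with 100 kb. Counting a summit only where the nearest start was that of the gene left 2 genes in the Gfi1 list and 44 sites. With lists of equal length (15568 peaks) 5 genes had a summit in iG+P, beside 54.9% of all protein-coding genes, and 2.94% of Atoh1 sites had Pou4f3. In that setting 68.4% of iGPA sites were in iAtoh1, a share that is not given for all sites. Other settings raised the share of Atoh1 sites with Pou4f3, to 22.4% with every called peak (41.7% of all sites) and 19.5% with 1000 bp windows (35.6%). Over all sites the share was 26.5% at equal length and 22.5% at the stricter threshold, so it lay above that at the 9 genes in each of these settings. With 100 bp windows the share at the 9 genes was 11.1% (3.71 to 24.1), an interval that reached the 24% of all sites. At equal length the Atoh1 summits of iGPA fell from 29 to 19 and the Pou4f3 summits of iG+P from 21 to 9. The other 97 such values moved by less than 1.5 times or stayed in their interval. Leaving out 1 gene, the share of Atoh1 sites with Pou4f3 ran from 9.52% to 16.2%. The recovered intervals cover counting error of merged libraries, and a site missing from a list may be bound below its threshold.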
